A study of Mus musculus with 16 samples.

Results

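The genes described here are 35 genes of the lysosome, the acidic compartment in which cells digest proteins, lipids, sugars and engulfed material. The rule that lists them goes by gene name and uses no measured value, though it was written with earlier results of these data known. They cover soluble hydrolases, their cofactors, proteins of the lysosomal membrane, transcription factors of the MiT/TFE family and subunits of the proton pump. Of the 35 genes, 33 had a named probe set among the 19505 genes tested, each 1 probe set, and Glb1 and Atp6v0c were not analysed here. Hearts came from 10-week-old male wild-type C57BL/6 mice with no stated transgene or deletion. The left anterior descending coronary artery was ligated for 30 min, followed by reperfusion for 6, 24 or 72 h, and mice with sham surgery, whose labels state no hours, served as controls. Each of these 4 groups held 4 hearts, with 1 Affymetrix array per heart, and all comparisons with sham share the same 4 sham arrays. The tissue is labelled heart, and the cardiomyocyte markers, such as Myh6, Tnnt2 and Tnni3, were 10 of 10 above background in every group. The labels do not say which part of the heart was taken, so injured and spared muscle cannot be told apart, and a bulk array cannot tell fewer cells of a type from less RNA per cell.

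Lysosomal hydrolases are made in the endoplasmic reticulum, tagged with mannose 6-phosphate and delivered to a lumen kept acidic by the V-ATPase. This pump couples ATP hydrolysis in its cytosolic V1 sector to proton transport through its membrane V0 sector. TFEB and its relatives MITF and TFEC bind E-box sequences in the promoters of many lysosomal genes, in a form called the CLEAR element, and are held back by nutrient signalling at the lysosomal surface. In the heart, lysosomes serve autophagy in muscle cells and are abundant in macrophages, which engulf dead cells after injury.

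The promoters of the members are shown because the CLEAR element is the sequence that many lysosomal promoters share. RefSeq promoter windows of GRCm38.p6, from 250 bases before to 50 bases after a start site, were at hand for 29 of the 35 genes, and not for Asah1, Npc1, Atp6v0d2, Atp6v1b2, Atp6v1c1 and Atp6v1h. The E-box CACGTG, which reads the same on both strands, occurred in the windows of 10 of the 29 genes (34.5%), against 8.09% of all 27025 genes with a window. Of all 32851 windows 7.15% held it, and among the 12936 windows at least as rich in G and C as the members' median of 56.33%, the share was 10.4%. All 16 matches in the members were of the 7-base form TCACGTG on one of the strands, which contains the E-box and was found in 4.29% of all genes. The 8-base form TCACGTGA was in 4 of 29 members (13.8%) and 1.12% of all genes. The longest form searched for the CLEAR element was the 10-base form, with G before these letters and C after them. It was in 0 of 29 members and 0.37% of all genes. Of the 12936 windows rich in G and C, 0.673% held it. With so low a share in all genes, 0 of 29 cannot tell the members from other genes. The 9 measured genes with a match are printed below from 17 bases before the first match to 17 after the last, 5′ to 3′ on the strand of the gene, with CACGTG in capitals.

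Lamp1, chr8:13159083-13159168, plus strand: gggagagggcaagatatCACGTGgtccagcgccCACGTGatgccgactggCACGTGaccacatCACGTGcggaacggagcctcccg
Mcoln1, chr8:3500431-3500496, plus strand: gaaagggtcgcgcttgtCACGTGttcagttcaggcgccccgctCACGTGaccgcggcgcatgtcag
Gla, chrX:134601177-134601249, minus strand: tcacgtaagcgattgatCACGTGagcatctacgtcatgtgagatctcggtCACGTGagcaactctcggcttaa
Gaa, chr11:119267806-119267845, plus strand: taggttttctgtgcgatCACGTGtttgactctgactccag
Naglu, chr11:101070004-101070043, plus strand: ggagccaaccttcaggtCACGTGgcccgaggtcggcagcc
Lgmn, chr12:102439119-102439158, minus strand: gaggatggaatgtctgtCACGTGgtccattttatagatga
Atp6v0b, chr4:117887325-117887382, minus strand: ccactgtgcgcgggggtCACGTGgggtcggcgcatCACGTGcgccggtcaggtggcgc
Atp6v0d1, chr8:105566045-105566084, minus strand: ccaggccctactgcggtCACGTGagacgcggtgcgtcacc
Atp6v1a, chr16:44139368-44139407, minus strand: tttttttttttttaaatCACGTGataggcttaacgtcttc

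The Lamp1 window held 4 matches, the first beginning at position -61 from the start site. Mcoln1, Gla and Atp6v0b held 2 matches each, and the other genes 1. Lgmn has 2 start sites in the table, and its match begins at position -49 from the second of them. A match to CACGTG is a description of these letters, is not taken as a full CLEAR element and shows no binding.

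All values below are log2 signals as deposited, and a change is a difference of group means with its SE (n = 4 per group). A gene is said to have risen or fallen if limma's adjusted p over all 19505 genes was below 0.05. Deposited values reached 19.82, above the plain log2 range of a scanner, so the scale may be stretched. A mean below 6.76, the 75th percentile of 5222 negative control probe sets, is called below background, and a change that starts there has an uncertain size. The mean over 6 atrial markers was 11.74 on array 16 of the 24 h group and 8.08 to 8.17 on the other 24 h arrays, and array 17 of that group had the lowest macrophage marker mean of its group, 9.23 against 9.90 to 10.73. Calls of members against sham that were lost or gained without these arrays are given below. The 4 hybridization spike-ins averaged 10.54 in sham, 10.76 at 6 h, 10.23 at 24 h and 10.04 at 72 h, and counts of members called after centring on them, or on the 4 poly-A spike-ins, are given after the counts as deposited.

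Most lysosomal genes were near or below their sham level at 6 h of reperfusion, stood on both sides of it at 24 h and lay above it at 72 h. At 6 h 5 of 33 members rose and 7 fell, where 7.92% of all genes rose and 12.3% fell. At 24 h 12 rose and 6 fell (all genes 13.8% and 12.3%). At 72 h 19 rose, or 57.6%, and 1 fell, or 3.03% (all genes 11.5% and 10.3%), and 14 of the 19 were at least 2-fold higher. The median change of the members was -0.16, 0.16 and 0.63 at the 3 times, beside -0.04, -0.07 and -0.09 over all genes. The highest of the 4 group means was at 72 h in 23 members, and the lowest was at 6 h in 14 and in sham in 12.

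The arrays showed the same order without a model. The 4 arrays at 72 h lay above all 4 sham arrays for 21 of 33 members and below them for 1, where 12.7% and 14.4% of all genes did so. At 6 h, 7 members lay wholly above sham and 9 wholly below (all genes 9.06% and 13.7%), and at 24 h 11 and 6 did (all genes 12.9% and 13%). Over the 4 groups, 30 of 33 members differed by limma's F test, against 44.5% of all genes, and Tfeb, Atp6v0b and Atp6v1e1 did not pass.

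The counts of falls moved with single arrays. The 7 falls at 6 h became 4 without array 7, 8 or 10 of the 6 h group, and the 6 falls at 24 h became 3 without array 2 of sham or array 16 of the 24 h group. With arrays 16 and 17 of the 24 h group both left out, 11 members rose and 4 fell at 24 h. After hybridization spike-in centring 3 members rose and 10 fell at 6 h (all genes 5% and 20.5%), 15 rose and 1 fell at 24 h (23.3% and 4.31%), and 26 rose and 1 fell at 72 h (37.3% and 1.27%). After poly-A centring 2 rose and 14 fell at 6 h (4.43% and 31.2%), 11 rose and 5 fell at 24 h (10.4% and 12.7%), and 20 rose and 1 fell at 72 h (14.1% and 3.02%).

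**Figure D1:**
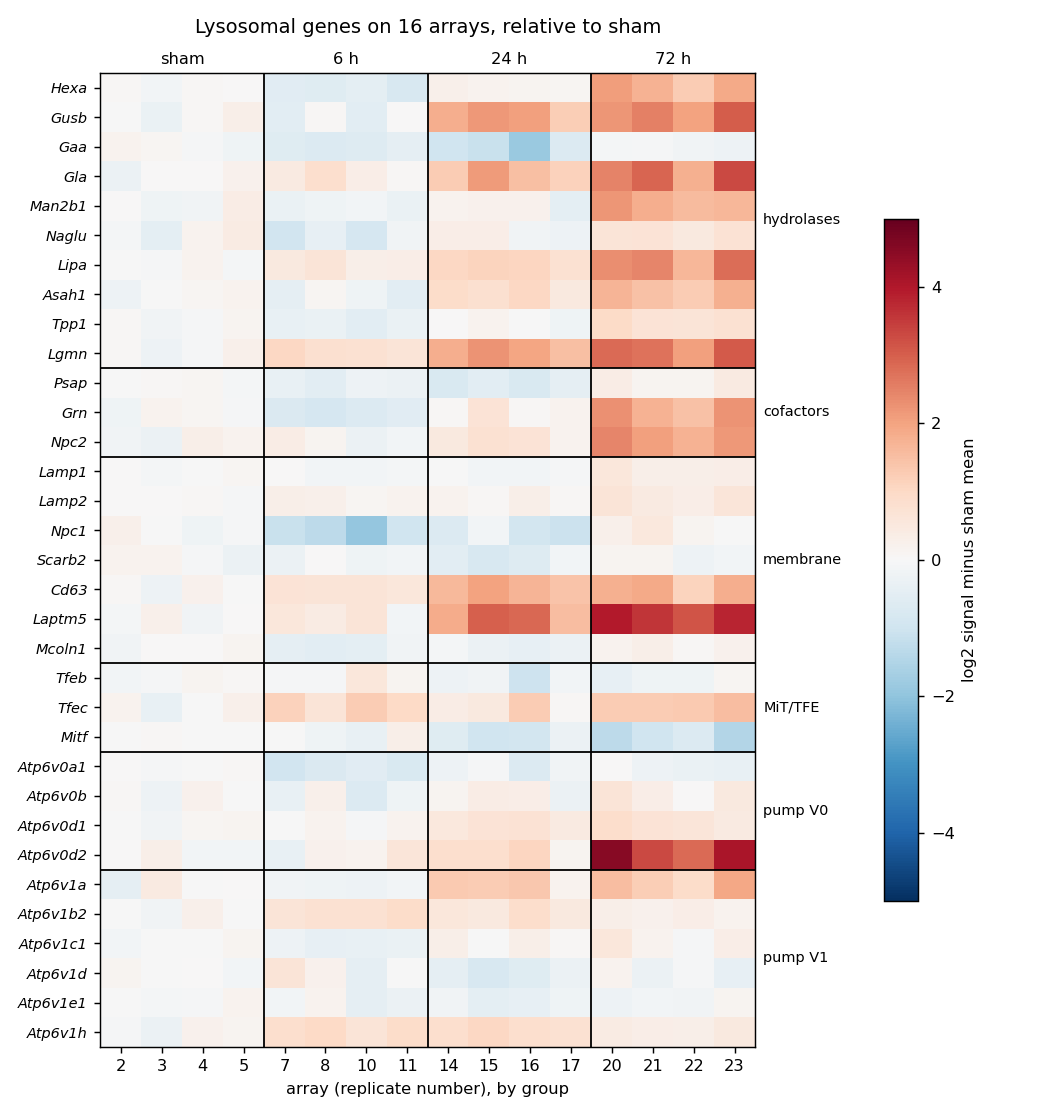
Log2 signal of the 33 measured lysosomal genes (rows, by role) on the 16 arrays (columns, by group and replicate number), minus the mean of the 4 sham arrays. Red is above and blue below the sham mean. Most rows of hydrolases and cofactors are pale or blue at 6 h and red at 72 h, while most pump rows stay pale.

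Of 10 soluble hydrolases, 1 rose and 3 fell at 6 h (all genes 7.92% and 12.3%). At 24 h 5 rose and 1 fell (13.8% and 12.3%), and at 72 h 9 rose with none lower (11.5% and 10.3%). The median change of the 10 went from -0.26 at 6 h to 0.49 at 24 h and 1.78 at 72 h. Gaa, the acid alpha-glucosidase that degrades lysosomal glycogen, was the hydrolase that did not pass at 72 h.

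Lgmn encodes legumain, an asparaginyl endopeptidase that also matures other lysosomal proteases. Its signal was 13.36, 13.05, 13.24 and 13.56 in sham, 14.34, 14.11, 14.07 and 13.96 at 6 h, 15.12, 15.53, 15.26 and 14.81 at 24 h, and 16.13, 16.03, 15.37 and 16.36 at 72 h. Each later group lay above sham with no overlap. Lgmn rose by 0.82 ± 0.20 at 6 h (adjusted p = 0.00502), by 1.88 ± 0.20 at 24 h (1.19e-06) and by 2.67 ± 0.20 at 72 h (1.18e-08), a 6.35-fold difference at the last time. It was also higher at 24 h than at 6 h and at 72 h than at 24 h (1.06 ± 0.20 and 0.79 ± 0.20). The call at 6 h ended with hybridization spike-in centring (0.60, adjusted p = 0.0691) and with poly-A centring (0.48, adjusted p = 0.0724).

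Hexa, the alpha subunit of beta-hexosaminidase, which cleaves GM2 ganglioside, moved both ways. It read 10.54, 10.33, 10.54 and 10.49 in sham, 9.90, 9.88, 9.97 and 9.68 at 6 h, 10.74, 10.66, 10.63 and 10.57 at 24 h, and 12.55, 12.22, 11.73 and 12.36 at 72 h. All 6 h arrays were below sham and all 72 h arrays above it. Hexa fell by 0.62 ± 0.15 at 6 h (adjusted p = 0.00659), had a change of 0.17 ± 0.15 at 24 h (0.461) and rose by 1.74 ± 0.15 at 72 h (1.29e-07).

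Tpp1, a tripeptidyl peptidase, followed the same course within a narrower range. It fell by 0.39 ± 0.13 at 6 h (adjusted p = 0.0397) and rose by 0.77 ± 0.13 at 72 h (0.000273). Its arrays lay between 14.52 and 14.84 in sham, 14.14 and 14.36 at 6 h, and 15.35 and 15.63 at 72 h. The call at 6 h ended without array 2, 4 or 5 of sham or any array of the 6 h group, with adjusted p-values of 0.0539 to 0.114, with median centring (0.0629) and in a fit of sham and 6 h alone (0.0707).

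Gaa differed from the other hydrolases in its time course. Its signal was 13.95, 13.90, 13.73 and 13.59 in sham, 13.17, 13.11, 13.16 and 13.33 at 6 h, 12.80, 12.67, 11.95 and 13.12 at 24 h, and 13.68, 13.74, 13.63 and 13.54 at 72 h. The 6 h and 24 h arrays were all below sham, and the 72 h arrays overlapped it. Gaa fell by 0.60 ± 0.19 at 6 h (adjusted p = 0.0270) and by 1.16 ± 0.19 at 24 h (0.000109), and its change at 72 h was -0.14 ± 0.19 (0.633). From 24 h to 72 h it rose by 1.01 ± 0.19 (0.000944). The 6 h call ended without array 2 or 3 of sham or array 7, 8 or 10 of the 6 h group (adjusted p-values of 0.0566 to 0.0774).

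Gusb, Gla, Lipa and Asah1 rose at both 24 h and 72 h. Gusb, the beta-glucuronidase, rose by 1.82 ± 0.23 at 24 h and 2.45 ± 0.23 at 72 h, and its sham arrays (7.34 to 7.95) lay below the 24 h (8.90 to 9.84) and 72 h arrays (9.69 to 10.70). Gla, the alpha-galactosidase A, rose by 1.51 ± 0.27 and 2.61 ± 0.27. Lipa, the acid lipase that hydrolyses cholesteryl esters and triglycerides, rose by 0.99 ± 0.19 and 2.30 ± 0.19. Asah1, the acid ceramidase, rose by 0.81 ± 0.17 and 1.56 ± 0.17. The arrays of these 4 genes did not overlap sham at either time.

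Man2b1 and Naglu rose at 72 h alone among the comparisons with sham. Man2b1, the lysosomal alpha-mannosidase, had changes of -0.25 ± 0.18 at 6 h and 0.03 ± 0.18 at 24 h and rose by 1.82 ± 0.18 at 72 h (adjusted p = 6.73e-07). Naglu, which removes alpha-N-acetylglucosamine from heparan sulfate, rose by 0.63 ± 0.21 (0.0342), from a sham mean of 6.20 to 6.83, and was below background in sham and at 6 h and 24 h. The Naglu call ended with quantile normalization (adjusted p = 0.106), with median centring (0.0667), and without array 2 or 3 of sham or array 20, 21 or 23 of the 72 h group (0.0702 to 0.132). At 6 h Naglu had a change of -0.58 ± 0.21 (0.0554), which passed without array 17 of the 24 h group (0.0494), without arrays 16 and 17 together (0.0430), and with hybridization spike-in (0.0156) or poly-A centring (0.00183).

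**Figure D2:**
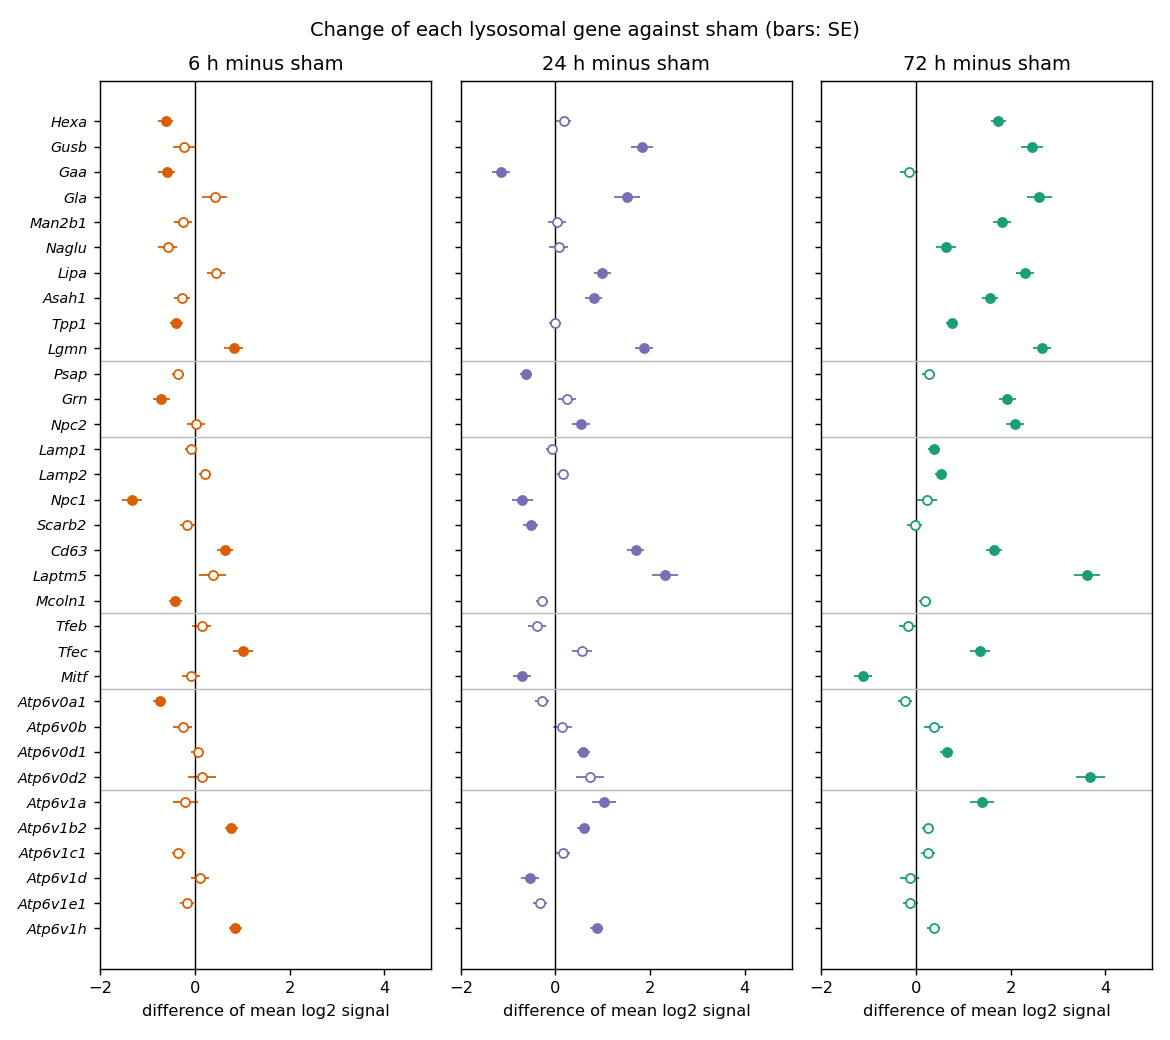
Difference of mean log2 signal from sham (x axis) for each of the 33 lysosomal genes (y axis, by role, separated by grey lines) at 6, 24 and 72 h, with bars of 1 SE. Filled points passed limma's adjusted p threshold of 0.05 and open points did not. At 72 h 9 of 10 hydrolases are filled to the right of 0, while Mitf is the filled point to the left.

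The 3 lumenal cofactors and carriers split between Grn and Npc2, which rose at 72 h, and Psap, which fell at 24 h. Grn encodes progranulin, a secreted and lysosomal glycoprotein needed for normal hydrolase activity. It read 12.81, 13.19, 13.14 and 12.98 in sham, 12.31, 12.17, 12.33 and 12.45 at 6 h, 13.09, 13.70, 13.10 and 13.19 at 24 h, and 15.31, 14.77, 14.49 and 15.28 at 72 h. The 6 h arrays all lay below sham and the 72 h arrays all above it. Grn fell by 0.71 ± 0.19 at 6 h (adjusted p = 0.00891), had a change of 0.24 ± 0.19 at 24 h (0.382) and rose by 1.93 ± 0.19 at 72 h (3.33e-07).

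Npc2, the soluble protein that hands cholesterol to NPC1, rose by 2.10 ± 0.19 at 72 h, with arrays of 9.28 to 9.98 against 7.25 to 7.84 in sham. Its rise at 24 h, 0.54 ± 0.19 (adjusted p = 0.0437), was near the threshold. That call ended with quantile normalization, median centring and poly-A centring, in a fit of sham and 24 h alone, without arrays 16 and 17 of the 24 h group together, and without array 2 or 3 of sham, 14, 15 or 16 of the 24 h group, or 21 or 23 of the 72 h group, with adjusted p-values of up to 0.146. Psap, the precursor of the saposins that present sphingolipids to their hydrolases, fell by 0.63 ± 0.13 at 24 h (0.00124), a call that ended with hybridization spike-in centring (-0.32, adjusted p = 0.231). At 6 h all Psap arrays lay below sham, with a change of -0.36 ± 0.13 (adjusted p = 0.0595) that passed with the filter at background (0.0231), trend and robust moderation (0.0137), and hybridization spike-in (0.0270) or poly-A centring (0.00441). Psap had a change of 0.27 ± 0.13 at 72 h (0.163), which passed with hybridization spike-in centring (0.76, 0.00331), and rose by 0.89 ± 0.13 from 24 h to 72 h (0.000113).

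Of 7 membrane proteins, 1 rose and 2 fell at 6 h (all genes 7.92% and 12.3%). At 24 h 2 rose and 2 fell (13.8% and 12.3%), and at 72 h 4 rose with none lower (11.5% and 10.3%). Laptm5, a lysosomal membrane protein of blood cell lineages, and Cd63, a tetraspanin of late endosomes and exosomes, rose most among the 7. Laptm5 read 9.87, 10.21, 9.78 and 9.99 in sham, 10.51, 10.39, 10.62 and 9.82 at 6 h, 11.81, 12.96, 12.84 and 11.50 at 24 h, and 13.94, 13.52, 13.10 and 13.77 at 72 h. The 24 h and 72 h arrays were all above sham, and the 6 h arrays overlapped it. Laptm5 rose by 2.32 ± 0.28 at 24 h (adjusted p = 4.93e-06) and by 3.62 ± 0.28 at 72 h (2.04e-08), a 12.3-fold difference.

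Cd63 had reached its highest level by 24 h. Its arrays lay at 11.59 to 12.04 in sham, 12.38 to 12.50 at 6 h, 13.27 to 13.85 at 24 h and 12.94 to 13.72 at 72 h, each later group above sham. Cd63 rose by 0.63 ± 0.17 at 6 h (adjusted p = 0.0125), 1.69 ± 0.17 at 24 h (8.56e-07) and 1.65 ± 0.17 at 72 h (9.94e-07). Between 24 h and 72 h its change was -0.05 ± 0.17 (0.922). The 6 h call ended with hybridization spike-in (adjusted p = 0.169) and poly-A centring (0.194).

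Npc1, the membrane transporter that exports cholesterol from the lysosome, moved in the opposite direction early. It read 9.57, 9.31, 9.11 and 9.27 in sham, 8.22, 8.01, 7.39 and 8.33 at 6 h, 8.63, 9.18, 8.39 and 8.26 at 24 h, and 9.56, 9.85, 9.47 and 9.30 at 72 h. All 6 h arrays were below sham, and the 24 h and 72 h arrays overlapped it. Npc1 fell by 1.33 ± 0.21 at 6 h (adjusted p = 0.000141) and by 0.70 ± 0.21 at 24 h (0.0204), and had a change of 0.23 ± 0.21 at 72 h (0.496). The 24 h call ended without array 2 of sham or array 16 or 17 of the 24 h group (0.0624 to 0.0667), without arrays 16 and 17 together (-0.41, adjusted p = 0.261) and with hybridization spike-in centring (-0.39, 0.242).

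The abundant structural glycoproteins Lamp1 and Lamp2, which coat the inner face of the lysosomal membrane, changed little. Lamp2 rose by 0.52 ± 0.12 at 72 h (adjusted p = 0.00471), with arrays of 16.94 to 17.25 against 16.52 to 16.65 in sham. Lamp1 rose by 0.38 ± 0.12 (0.0264), with arrays of 14.82 to 15.06 against 14.42 to 14.60. The Lamp1 call ended without array 2, 3 or 4 of sham or array 20 of the 72 h group (0.0501 to 0.0934) and with median centring (0.0971).

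Mcoln1, the calcium channel TRPML1, fell by 0.41 ± 0.13 at 6 h (adjusted p = 0.0300) and had a change of 0.19 ± 0.13 at 72 h (0.332). Its 6 h call ended with quantile normalization (0.0594), in a fit of sham and 6 h alone (0.0693) and without array 3, 4 or 5 of sham or 7, 8 or 10 of the 6 h group (0.0613 to 0.0842). The Mcoln1 change at 24 h, -0.28 ± 0.13 (0.126), passed with quantile normalization (0.0418) or median centring (0.0486). The change at 72 h passed with hybridization spike-in centring (0.69, adjusted p = 0.00420). Scarb2, also called LIMP-2, the receptor that carries glucocerebrosidase to lysosomes, fell by 0.53 ± 0.16 at 24 h (0.0206) and had a change of -0.03 ± 0.16 at 72 h (0.932). Its 24 h call ended without array 2 or 3 of sham or array 15 or 16 of the 24 h group (0.0578 to 0.0770), in a fit of sham and 24 h alone (0.0516) and with hybridization spike-in centring (0.428).

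**Figure D3:**
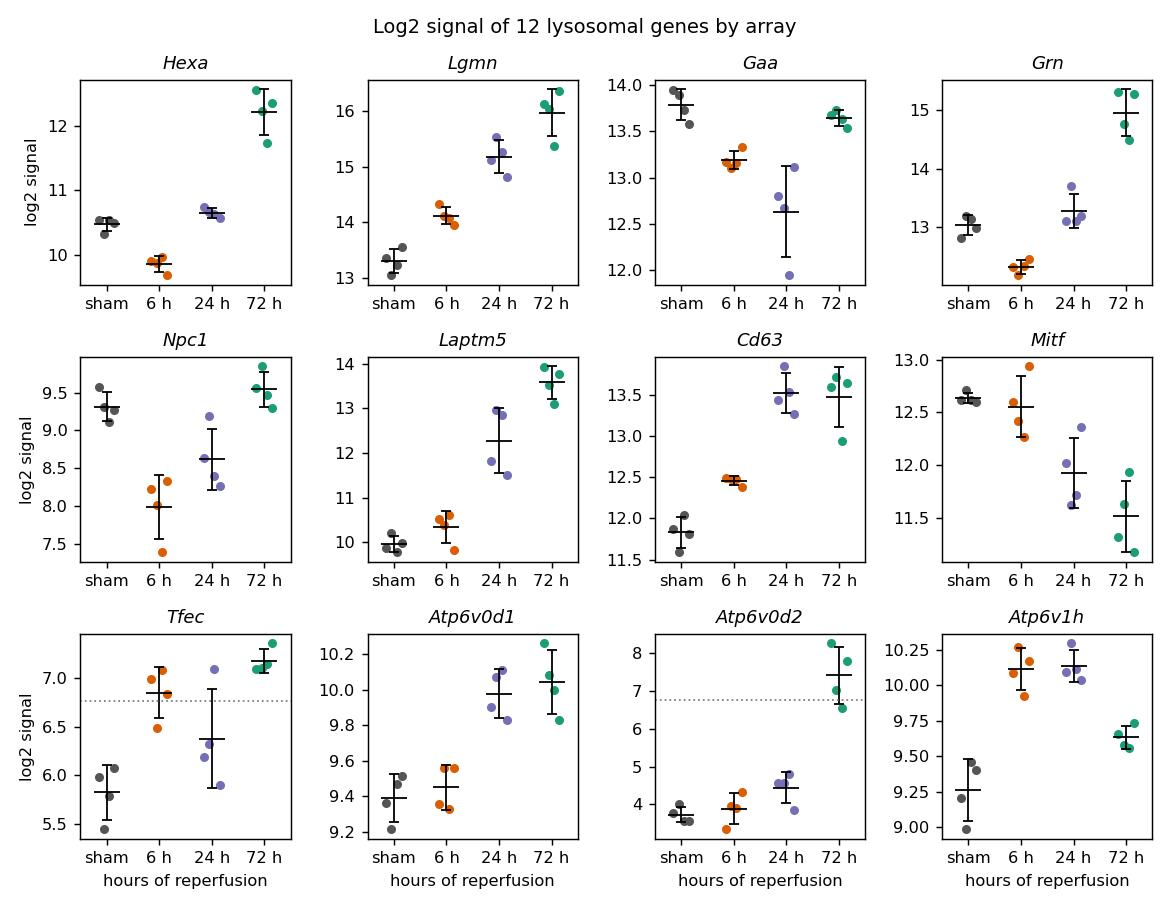
Log2 signal on each array (points) for 12 lysosomal genes in sham and at 6, 24 and 72 h, with group mean and SD (black, n = 4), and the background level of 6.76 as a dotted line where it falls in range. Each panel has its own y axis, and levels of different genes are not comparable. Hexa and Grn dip at 6 h before their 72 h rise, Gaa is lowest at 24 h, and Atp6v0d2 is above the background level on 3 of 4 arrays at 72 h.

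The 3 transcription factors of the MiT/TFE family did not move together. Mitf read 12.61, 12.71, 12.62 and 12.60 in sham, 12.60, 12.42, 12.26 and 12.94 at 6 h, 12.02, 11.62, 11.71 and 12.36 at 24 h, and 11.32, 11.63, 11.93 and 11.17 at 72 h. The 24 h and 72 h arrays were all below sham. Mitf had a change of -0.08 ± 0.19 at 6 h (adjusted p = 0.844), fell by 0.71 ± 0.19 at 24 h (0.00897) and by 1.12 ± 0.19 at 72 h (0.000240), and was the member that fell at 72 h. The 24 h call ended with hybridization spike-in centring (-0.40, adjusted p = 0.150), and the array measures the Mitf transcripts together, without telling their isoforms apart.

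Tfec, a family member found mainly in macrophages and osteoclasts, was higher after reperfusion. It read 5.98, 5.44, 5.79 and 6.08 in sham, 6.99, 6.48, 7.08 and 6.84 at 6 h, 6.19, 6.32, 7.09 and 5.90 at 24 h, and 7.09, 7.10, 7.15 and 7.36 at 72 h. The 6 h and 72 h arrays were all above sham, and the 24 h arrays overlapped it. Tfec rose by 1.02 ± 0.21 at 6 h (adjusted p = 0.00151) and 1.35 ± 0.21 at 72 h (0.000105), from a sham mean below background. At 24 h its change of 0.55 ± 0.21 (0.0630) passed without array 17 of that group (0.71, adjusted p = 0.0169), with hybridization spike-in centring (0.00409) and with array weights (0.0447). Tfeb, the main activator of the CLEAR network, had changes of 0.14 ± 0.19 at 6 h (0.711), -0.39 ± 0.19 at 24 h (0.157) and -0.18 ± 0.19 at 72 h (0.567). Its means were 7.19, 7.33, 6.80 and 7.02 in the 4 groups, not far above background. The 24 h change of Tfeb passed with quantile normalization (-0.54, adjusted p = 0.0471). Transcript levels do not show whether these factors were in the nucleus.

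The proton pump changed in part. Of 10 measured subunits, 2 rose and 1 fell at 6 h (all genes 7.92% and 12.3%). At 24 h 4 rose and 1 fell (13.8% and 12.3%), and at 72 h 3 rose with none lower (11.5% and 10.3%). The median changes of the 10 were -0.05, 0.37 and 0.31. Outside the pump, 16 of 23 members rose and 1 fell at 72 h, with a median of 1.35, and no test of the pump against the other members was run.

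In the V0 sector, the paralogous d subunits, which join the proton channel to the central stalk, were both higher at 72 h. Atp6v0d2 is the form known from osteoclasts and macrophages. It read 3.76, 4.00, 3.57 and 3.57 in sham, 3.33, 3.95, 3.91 and 4.32 at 6 h, 4.57, 4.56, 4.80 and 3.85 at 24 h, and 8.27, 7.02, 6.56 and 7.80 at 72 h. All 72 h arrays were above every other array, and the means of sham, 6 h and 24 h were below background. The change was 0.72 ± 0.30 at 24 h (adjusted p = 0.0834) and 3.69 ± 0.30 at 72 h (3.64e-08), and 2.97 ± 0.30 from 24 h to 72 h (2.08e-06). The 24 h change passed without array 17 of that group (0.92, adjusted p = 0.0297), in a fit of sham and 24 h alone (0.0221) and with hybridization spike-in centring (0.0139).

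The widely expressed Atp6v0d1 had reached its later level by 24 h. Its signal was 9.36, 9.21, 9.47 and 9.51 in sham, 9.36, 9.56, 9.33 and 9.56 at 6 h, 9.90, 10.07, 10.11 and 9.83 at 24 h, and 10.26, 10.08, 10.00 and 9.83 at 72 h. The 24 h and 72 h arrays were all above sham. Atp6v0d1 rose by 0.59 ± 0.14 at 24 h (adjusted p = 0.00280) and 0.65 ± 0.14 at 72 h (0.00151), with a change of 0.07 ± 0.14 between them (0.855). Atp6v0a1, the a1 form of the large membrane subunit, fell by 0.75 ± 0.15 at 6 h (0.000933), with arrays of 12.86 to 13.26 against 13.75 to 13.87 in sham, and its changes at 24 h and 72 h were -0.29 ± 0.15 and -0.23 ± 0.15. Atp6v0b, a proteolipid of the rotor ring, passed in none of the 3 comparisons with sham as deposited, with changes of -0.26 ± 0.20, 0.15 ± 0.20 and 0.38 ± 0.20. Its change at 72 h passed with hybridization spike-in centring (0.87, adjusted p = 0.00350). At 6 h it passed as lower with poly-A centring (-0.59, adjusted p = 0.0347).

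In the V1 sector as deposited, Atp6v1h and Atp6v1b2 were called higher than sham at 6 h and 24 h but not at 72 h. Atp6v1h, the regulatory H subunit, read 9.20, 8.98, 9.46 and 9.40 in sham, 10.09, 10.27, 9.92 and 10.17 at 6 h, 10.10, 10.30, 10.12 and 10.04 at 24 h, and 9.66, 9.58, 9.56 and 9.74 at 72 h. All later arrays were above sham, with 72 h between sham and 24 h. Atp6v1h rose by 0.85 ± 0.14 at 6 h (adjusted p = 0.000129) and 0.88 ± 0.14 at 24 h (7.91e-05), had a change of 0.37 ± 0.14 at 72 h (0.0599) and fell by 0.50 ± 0.14 from 24 h to 72 h (0.0175). The change at 72 h passed with hybridization spike-in centring (0.87, adjusted p = 0.000766) and poly-A centring (0.56, 0.0291), with the filter at background (0.0276) and with array weights (0.0335).

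Atp6v1b2, a non-catalytic subunit of the ATPase head, had arrays of 12.35 to 12.80 in sham, 13.19 to 13.46 at 6 h, 13.01 to 13.42 at 24 h and 12.70 to 12.87 at 72 h. It rose by 0.77 ± 0.14 at 6 h (adjusted p = 0.000348) and 0.60 ± 0.14 at 24 h (0.00264), and its change at 72 h was 0.25 ± 0.14 (0.207). The 6 h call ended with poly-A centring (0.43, adjusted p = 0.0566). The change at 72 h passed with hybridization spike-in centring (0.75, adjusted p = 0.000718). Atp6v1a, the catalytic subunit, rose later: its change was -0.20 ± 0.25 at 6 h (0.682), and it rose by 1.03 ± 0.25 at 24 h (0.00480) and 1.40 ± 0.25 at 72 h (0.000451). Array 17 of the 24 h group read 7.92 for Atp6v1a, within the sham range of 7.30 to 8.21, and the other 24 h arrays read 9.02 to 9.12.

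The stalk subunits Atp6v1c1, Atp6v1d and Atp6v1e1 were not called higher than sham at any time as deposited, but Atp6v1c1 was at 72 h with hybridization spike-in centring (0.75, adjusted p = 0.00203). Atp6v1c1 had changes of -0.35 ± 0.14, 0.16 ± 0.14 and 0.25 ± 0.14, and Atp6v1e1 of -0.17 ± 0.15, -0.32 ± 0.15 and -0.12 ± 0.15. At 6 h all Atp6v1c1 arrays lay below sham (adjusted p = 0.0958). That change passed with the filter at background (0.0435) and with hybridization spike-in (0.0197) or poly-A centring (0.00805). Atp6v1d fell by 0.54 ± 0.20 at 24 h with an adjusted p of 0.0495. That call ended without 12 of the 16 arrays in turn (the exceptions were arrays 7 and 10 of the 6 h group, 17 of the 24 h group and 20 of the 72 h group), with adjusted p-values of up to 0.149, without arrays 16 and 17 of the 24 h group together (0.0786), and with hybridization spike-in (0.432) or poly-A centring (0.0681).

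Between the times of reperfusion, most called changes were rises; the means compared leave out the sham arrays, while the estimate of spread uses all 16 arrays. From 6 h to 24 h 16 of 33 members rose and 4 fell, where 17.3% of all genes rose and 10.9% fell. Gusb had the largest rise of this step, 2.06 ± 0.23, and the falls were Gaa, Tfeb, Mitf and Atp6v1d, by 0.53 to 0.64. From 24 h to 72 h 18 rose and 1 fell (all genes 6.85% and 6.07%). After Atp6v0d2, the largest rises of this step were those of Man2b1, 1.79 ± 0.18, Grn, 1.69 ± 0.19, Hexa, 1.57 ± 0.15, and Npc2, 1.56 ± 0.19. From 6 h to 72 h 23 rose and 3 fell (17.5% and 13.1%), the falls being Mitf, Atp6v1b2 and Atp6v1h.

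The falls between times were few and unstable in number. From 6 h to 24 h they numbered 1 without array 11 of the 6 h group or array 15 of the 24 h group, 2 without array 7 or 10 of the 6 h group or array 16 of the 24 h group, 7 with median centring and 0 with either spike-in centring, where the rises were 24 (hybridization) and 19 (poly-A). Under these scalings 16.9% of all genes fell with median centring, and 50.3% (hybridization) and 25% (poly-A) rose. From 24 h to 72 h either spike-in centring gave 21 rises and 0 falls, where 9.45% (hybridization) and 13.5% (poly-A) of all genes rose. From 6 h to 72 h there were 29 rises with hybridization and 28 with poly-A centring and 0 falls with either, where 69.9% and 47% of all genes rose. The fall of Atp6v1h from 24 h to 72 h was not called without array 15 of the 24 h group. Hexa, Tpp1 and Grn fell against sham at 6 h and rose at 72 h, and their differences between 6 h and 72 h were 2.36 ± 0.15 (adjusted p = 1.60e-09), 1.16 ± 0.13 (1.45e-06) and 2.64 ± 0.19 (3.42e-09). These differences follow from the changes against sham that picked the genes, so their tests add no support.

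Other genes of the pathway, in lists fixed by name, were read beside the members. Of 24 other hydrolases and activators, 0 rose and 6 fell at 6 h (all genes 7.92% and 12.3%). At 24 h 8 rose and 5 fell (13.8% and 12.3%). At 72 h 16 rose and 1 fell (11.5% and 10.3%), with a median change of 0.78. The largest falls at 6 h were those of the phospholipase Pla2g15 (-1.16 ± 0.22), the iduronidase Idua (-0.88 ± 0.20) and the beta-mannosidase Manba (-0.82 ± 0.21), whose means were below background in sham and at 6 h, so that the size of its change is uncertain. The largest rises at 72 h were those of the thiol reductase Ifi30 (4.30 ± 0.40), the macrophage lysozyme Lyz2 (4.20 ± 0.26) and the tartrate-resistant acid phosphatase Acp5 (3.42 ± 0.36), which started from a sham mean of 4.31, below background. Lyz2 also stands in the macrophage marker list.

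Of 17 other membrane proteins, 0 rose and 4 fell, or 23.5%, at 6 h (all genes 7.92% and 12.3%). At 24 h 3 rose and 3 fell, 17.6% each (all genes 13.8% and 12.3%). At 72 h 8 rose, or 47.1%, and 2 fell, or 11.8% (all genes 11.5% and 10.3%). At 6 h the cystine exporter Ctns changed by -1.25 ± 0.17 and the mean of the sialic acid exporter Slc17a5 went from 8.46 in sham to 7.46. At 72 h Gpnmb, a transmembrane glycoprotein of lipid-laden macrophages, went from a sham mean of 5.77, below background, to 13.30, a rise of 7.53 ± 0.38 (adjusted p = 1.78e-10). At 24 h it was at 7.47.

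Of 14 other pump subunits and accessory proteins, 0 rose and 2 fell at 6 h (all genes 7.92% and 12.3%). At 24 h 3 rose (13.8%). At 72 h 2 rose and 1 fell, or 14.3% and 7.14%, where 11.5% and 10.3% of all genes did. The large membrane subunit has several forms. Tcirg1, the a3 form of osteoclasts and secretory lysosomes, rose by 1.74 ± 0.27 at 72 h (adjusted p = 7.95e-05) from a sham mean of 6.01, below background. Atp6v0a2 fell by 0.98 ± 0.15 at 6 h (0.000102) and by 0.50 ± 0.15 at 72 h (0.0238). The accessory protein Atp6ap2, the prorenin receptor, rose by 0.99 ± 0.15 at 72 h (8.83e-05).

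Sorting and nutrient sensing genes were read too. Of 6 mannose 6-phosphate sorting genes, 1 fell at 6 h (all genes 12.3%), none passed at 24 h, and 3 rose at 72 h (all genes 11.5%). The 3 were Gnptab (0.65 ± 0.18), Nagpa (0.64 ± 0.23, from a sham mean below background) and Igf2r (0.58 ± 0.14). Of 15 genes of lysosomal nutrient sensing, 1 rose and 2 fell at 6 h, 1 rose and 2 fell at 24 h, and 3 rose and 1 fell at 72 h. These are 6.67% higher and 13.3% lower at 6 h and at 24 h, beside 7.92% and 12.3% of all genes at 6 h and 13.8% and 12.3% at 24 h, and 20% and 6.67% at 72 h, beside 11.5% and 10.3%. The genes named here are those with the largest called changes. At 6 h Flcn, the folliculin gene, whose product acts on Rag GTPases and so on the location of TFEB, fell by 1.46 ± 0.21 (adjusted p = 3.85e-05), and of its partners Fnip2 rose by 1.08 ± 0.22 (0.00133) and Fnip1 fell by 0.75 ± 0.16 (0.00216). At 24 h Rragd, a Rag GTPase, fell by 1.96 ± 0.24 (6.43e-06). Tfe3, the remaining widely expressed MiT/TFE gene, rose by 0.75 ± 0.24 at 24 h (0.0291) and 0.90 ± 0.24 at 72 h (0.0118), from a sham mean of 6.52, below background.

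**Figure D4:**
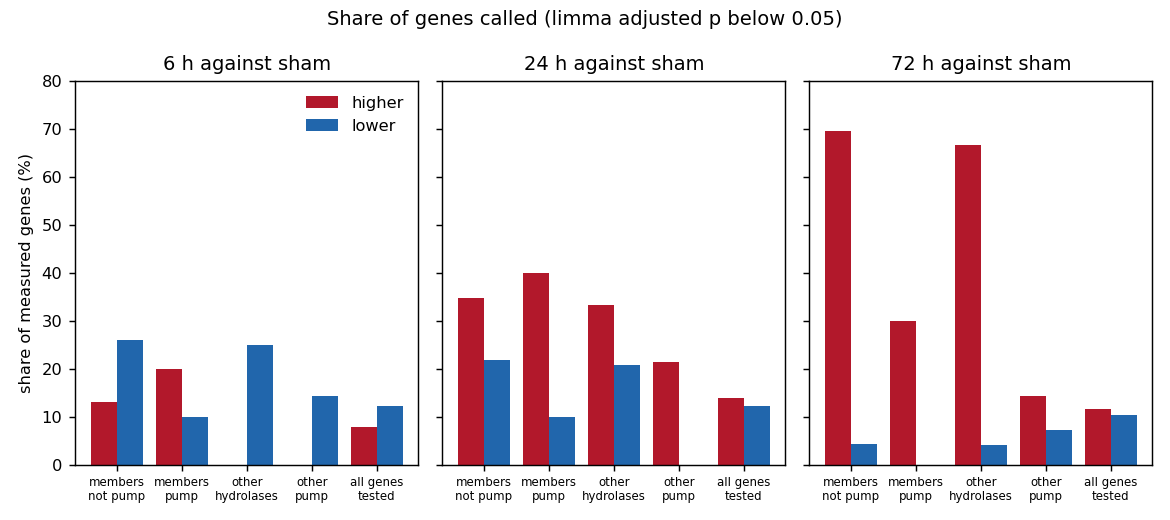
Share of measured genes called higher (red) or lower (blue) than sham (y axis, percent, limma adjusted p below 0.05) at 6, 24 and 72 h, for the 23 members outside the pump, the 10 pump members, 24 other hydrolases, 14 other pump genes and all 19505 genes tested. At 72 h 69.6% of members outside the pump and 66.7% of other hydrolases were higher, against 11.5% of all genes. The 19505 genes include 10381 below background in every group mean.

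The macrophage marker mean was 7.53 in sham, 8.29 at 6 h, 10.06 at 24 h and 10.99 at 72 h. Of 13 macrophage markers 4 rose at 6 h, 12 at 24 h and 13 at 72 h, with none called lower. Of all genes 7.92%, 13.8% and 11.5% rose. At 6 h 10 of the 13 changes were positive, and they ranged from -0.69 to 3.29. The log2 of their summed signal was 12.45 to 12.83 in sham, 12.78 to 13.19 at 6 h, 14.45 to 16.23 at 24 h and 16.01 to 16.83 at 72 h, and 5 of the 13 were below background in sham, 2 at 6 h and 0 later. Itgam, which is not particular to macrophages, rose by 3.29 ± 0.39 at 6 h, 5.29 ± 0.39 at 24 h and 4.51 ± 0.39 at 72 h. Trem2 rose by 5.36 ± 0.37 at 72 h, and the sham means of both were below background. On array 22 of the 72 h group, the soluble hydrolase mean was 11.57 against 12.00 to 12.18 on the other 72 h arrays, and the macrophage mean was 10.42 against 11.06 to 11.24. At 24 h array 17 was lowest in both means (10.66 and 9.23). Array 16 had the highest macrophage mean of that group, 10.73. Its hydrolase mean, 10.90, was below those of arrays 14 and 15 (10.97 and 11.12). At 6 h array 10 had the highest macrophage mean, 8.43, and the lowest hydrolase mean, 10.11. The part of macrophages in the lysosomal changes was not tested.

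Markers of other cell types were counted the same way. Beside them, 7.92%, 13.8% and 11.5% of all genes rose at 6, 24 and 72 h, and 12.3%, 12.3% and 10.3% fell. Of 8 neutrophil markers 7 rose at 6 h, 8 at 24 h and 3 at 72 h, with a summed log2 signal of 8.20 to 10.53 in sham, 15.75 to 16.37 at 6 h, 15.40 to 16.47 at 24 h and 11.09 to 13.34 at 72 h. Of 7 fibroblast markers 0 rose and 1 fell at 6 h (Lum, -0.95 ± 0.26), 3 rose and 1 fell at 24 h (Gsn, -1.33 ± 0.23), and 6 rose with none lower at 72 h. Their summed log2 signal was 17.39 to 17.65 in sham, 17.10 to 17.40 at 6 h, 16.42 to 17.38 at 24 h, wholly below sham, and 18.32 to 18.65 at 72 h. The fibroblast marker mean was 11.62 in sham, 11.17 at 6 h, 11.90 at 24 h and 14.03 at 72 h. From 24 h to 72 h 7 of 7 fibroblast markers rose, beside 7 of 13 macrophage markers and 6.85% of all genes. Of 10 cardiomyocyte markers none passed at 6 h, 5 fell at 24 h and 3 fell at 72 h, with a summed log2 signal of 21.54 to 21.56 in sham, 21.19 to 21.40 at 24 h and 21.34 to 21.47 at 72 h. Of 7 endothelial markers, 2 fell at each time and 1 rose at 6 h. In a list of 7 genes, so few calls say little beside the shares of all genes. The part of these cells in the lysosomal changes was not tested.

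**Figure D5:**
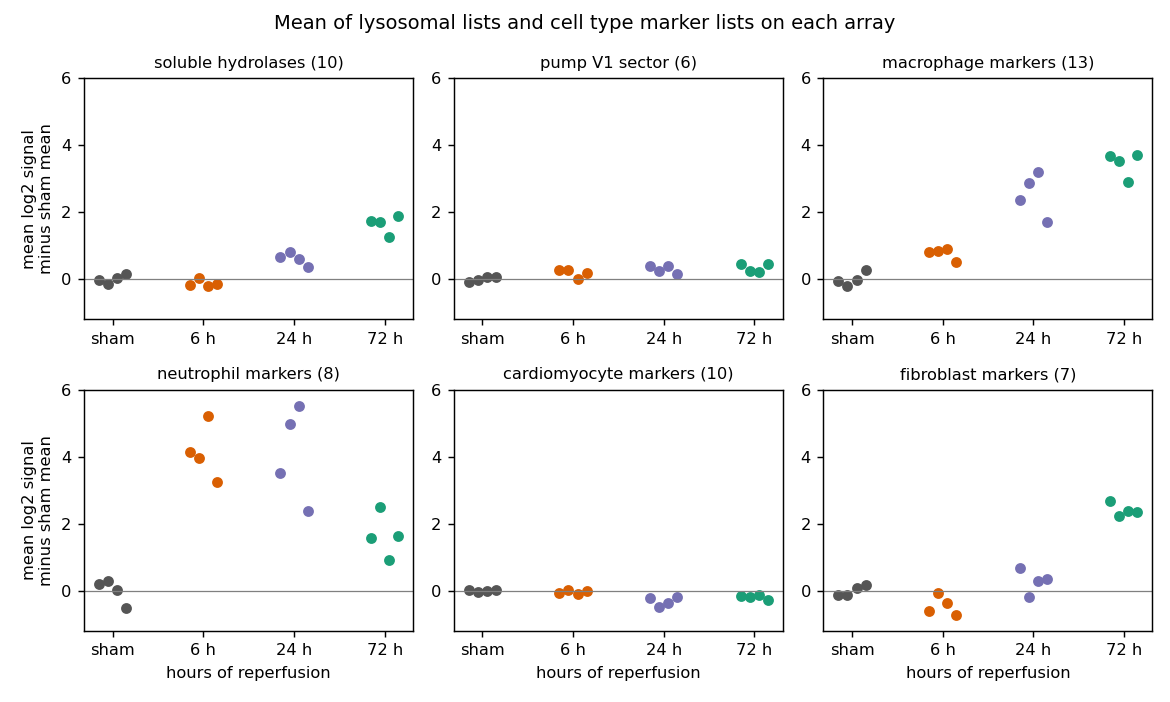
Mean log2 signal of 6 gene lists on each array (points), minus the mean of the 4 sham arrays, in sham and at 6, 24 and 72 h, on a common y axis, with the number of measured genes in each title. Soluble hydrolases, macrophage markers and fibroblast markers are highest at 72 h, neutrophil markers at 6 h and 24 h. The V1 pump sector, a mean over members that moved in different directions, was 10.55 to 10.70 in sham, and 10.81 to 11.04 at 24 h and 10.85 to 11.09 at 72 h, above all sham arrays.

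Members with a CACGTG match in the promoter were found among those that rose at 72 h and among the others. Of the 17 members that rose at 72 h and have a promoter window, 6 held a match (35.3%), and of the 10 other measured members with a window, 3 did (30%). Lgmn, Gla, Atp6v1a and Atp6v0d1, whose matches are printed above, rose at both 24 h and 72 h, and Naglu and Lamp1 at 72 h. Gaa, Mcoln1 and Atp6v0b were not called higher than sham as deposited. With hybridization spike-in centring Mcoln1 and Atp6v0b were called higher at 72 h.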

How the data were processed

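RNA from 16 hearts was measured on 1 array each. The log2 values were deposited by the authors, made with Affymetrix Expression Console per the submitters' processing notes; for its version, summarization and filters the sources used here give nothing, and base 2 was assumed. Array medians lay between 5.84 and 5.95, so the values were used as deposited. The design text names another Affymetrix array than the probe identifiers, which were followed. Hours were taken from the sample labels, since the series title lists others. Nothing in the labels says more of how hearts were paired or batched. The p-values rest on the spread between hearts within groups, pooled over the 4 groups and moderated with all genes. The annotation gave a single symbol to 19572 of 28846 probe sets, several to 0 and none to 9274, which were left out; symbols came from the platform annotation, updated through a RefSeq table, and the highest-mean probe set was kept for the 55 genes with several. Group means over all 16 arrays were fitted with lmFit and eBayes (limma 3.58.1, R 4.3.3), on 12 residual degrees of freedom plus a prior of 6.943, with Benjamini-Hochberg adjustment over 19505 genes, threshold 0.05; the median SE of a change was 0.183. Precision is limited by the number of arrays. The fit was tested on simulated data. All members may be named, and of each other list the 3 largest called changes per comparison. Members and lists were chosen with earlier results of these data known. Alternatives were quantile normalization, median centring, both spike-in centrings, averaging a gene's several probe sets, a filter at background, trend and robust moderation, array weights, fits of 2 groups and leaving out arrays.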

Additional observations from a re-analysis of the deposited data

Results flagged for a closer look

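In groups of 4 arrays, an array counted as standing apart where its gap to the nearest other array, over the group's range, exceeded Dixon's critical value for 4 samples. Of 132 groups of 4 values, 9 did so, where chance alone gives about 1 in 20, or 6.6. At 24 h, array 17 was low for Man2b1 (7.79, others 8.45 to 8.50) and for Atp6v1a (7.92, others 9.02 to 9.12). Array 15 of that group was high for Grn (13.70, others 13.09 to 13.19), and array 16 was low for Tfeb (6.17, others 6.95 to 7.07). At 6 h, array 10 was low for Tpp1 (14.14, others 14.33 to 14.36) and array 11 was low for Cd63 (12.38, others 12.48 to 12.50). At 72 h, array 20 was high for Lamp1 (15.06, others 14.82 to 14.85) and array 22 was low for Cd63 (12.94, others 13.59 to 13.72). In sham, array 3 was high for Mitf (12.71, others 12.60 to 12.62).

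For 3 genes the difference from sham changed sign between 6 h and 72 h, each way past the threshold: Hexa, Tpp1 and Grn. Their differences between 72 h and 6 h were 2.36, 1.16 and 2.64. These follow from the changes that picked the genes, so limma's test of them, which passed, adds no support.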

How the results depend on the processing

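The count of members higher at 72 h than in sham was 17 to 26 over all alternatives, beside 19 as deposited, and 17 to 19 with 1 array left out. The counts with 1 array left out ranged from 5 to 6 higher and 4 to 8 lower at 6 h, and from 11 to 14 higher and 3 to 6 lower at 24 h; from 6 h to 24 h, from 11 to 17 higher and 1 to 5 lower; from 24 h to 72 h, from 16 to 19 higher and 0 to 1 lower. Hybridization spike-in centring gave 3 members higher at 6 h, 1 lower at 24 h, and 0 lower from 6 h to 24 h, 24 h to 72 h and 6 h to 72 h. It gave 24 higher from 6 h to 24 h, where it also had 50.3% of all genes higher. Poly-A centring gave 2 higher and 14 lower at 6 h, and 0 lower in each of the comparisons between times. Lower members from 6 h to 24 h numbered 7 with median centring and 1 in a fit of those 2 groups. The cause was not tested; both centrings shift every gene of an array alike. Of 2565 values of single members against sham under an alternative, 2389 kept direction and call, 79 lost the call, 41 gained it, and 56 changed sign with no call either way; no called member changed sign. No paired analysis was possible because no replicate number occurs in more than 1 group. The background level of 6.76 limits Naglu, Tfec and Atp6v0d2, which the filter at that level left out.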
